A study of Homo sapiens with 18 samples.

Results

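The 10 genes described here encode antiviral effectors of the interferon response: IFI27, IFI6, IFI44, IFI44L, XAF1, MX1, MX2, BST2, RSAD2 and ISG20. They were taken by gene name from the RNA tables of 2 human breast cancer cell lines, and all 10 are listed in both tables, among 14308 genes in MDA-MB-231 and 14768 in T47D. MDA-MB-231 is an estrogen receptor negative line and T47D is an estrogen receptor positive line. Both overexpress G0S2, which encodes an inhibitor of triglyceride lipolysis, when given doxycycline. Each line gave 3 control libraries (day 0 of doxycycline in their titles), 3 of day 3 and 3 of day 15, so there are 6 groups and 18 libraries; the dose was 0.5 ug/ml, and the protocol text that names it stands on the control libraries too. The design text of the series instead names parental lines and lines resistant to Aza, which no sample label mentions, and the groups here follow the sample labels. The sources used here give neither the vector nor whether a line is a single clone, and there is no group with doxycycline but without the introduced gene, so effects of G0S2, doxycycline and vector cannot be told apart. Nothing in the sample labels ties replicates to separate cultures, so p-values may reflect technical spread alone.

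The members were chosen by their RNA levels over time in these same libraries: IFI44 for a level that lasted to day 15, and MX2 and ISG20 for courses unlike the others. The choice has no numeric threshold. Their values and log2 folds are therefore a description, and no p-value is given for a member. The words rose and fell are used of a member only where its Benjamini-Hochberg adjusted p in a limma fit over all genes of the line's table was under 0.05, and otherwise the values alone are given. Each group has n = 3, and SE denotes the fitted standard error of a log2 fold. CPM, read counts scaled to library size, was computed from the whole reads recovered from the deposited log2 values; log2 folds are on the deposited scale, which carries a pseudocount of 3 reads and so makes changes of genes with few reads look smaller.

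Type I interferons act through IFNAR1 and IFNAR2, and type III interferons through IFNLR1 and IL10RB. Both receptors activate the kinases JAK1 and TYK2, which phosphorylate transcription factors of the STAT family; these join IRF9 and bind the interferon-stimulated response element, a pair of GAAA units near the start of target genes. The products act at separate steps of viral growth, such as genome replication, capsid transport and budding, and some of these genes are also transcribed at a basal level in tumor cells.

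G0S2 followed the labels. It had 25.2 ± 0.251 CPM (SD) in control, 1473 ± 39.5 at day 3 and 1202 ± 95.8 at day 15 in MDA-MB-231, and 0.517 ± 0.335, 861 ± 19.8 and 832 ± 140.3 CPM in T47D. Libraries held 37012519 to 52380759 recovered reads in MDA-MB-231 and 40123505 to 50973067 in T47D. In T47D, day 15 replicate 2 stood apart: its counts differed from replicates 1 and 3 with a chi-square per degree of freedom of 14.5 and 23.6, against 1.74 to 5.92 in all other pairs of a group. Without it, 8 members still rose at day 15 and 8 instead of 7 fell from day 3 (MX2 added), and the day 15 log2 folds of IFI44 and IFI6 were 4.88 and 2.43. Most marker levels followed the line labels. Of the mesenchymal-like markers in MDA-MB-231, VIM had 2248 to 2481 CPM, but SPARC had 0.347 to 0.605 CPM. The luminal markers ESR1, FOXA1, PGR and TFF1 are not listed there, while GATA3 had 15.5 to 18.9 CPM. In T47D, GATA3 had 1129 to 1324 CPM, ESR1 244.5 to 279.6 and FOXA1 372.4 to 382.4, although TFF1 had 1.38 to 4.08. CD44 and FN1 are listed in T47D too (6.63 to 11.8 and 17.0 to 22.7 CPM), against 921 to 1001 and 290 to 318 CPM in MDA-MB-231.

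Promoter windows (250 bases before to 50 bases after a transcript start, RefSeq, GRCh38.p14) were found for 9 of the 10 members. The core of the response element, searched on both strands as GAAA, then any 2 bases, then GAAA, lies in at least one window of 8 of these 9 genes: BST2, IFI27, IFI44, IFI44L, IFI6, ISG20, MX1 and RSAD2. It lies in 3.57% of all 35116 windows, and in a window of 4.01% of the 11964 genes that are listed in either table and have a window. With 1 more fixed base (a C after the last GAAA) the members with a match were 6 of 9, against 1.09% of the listed genes. XAF1 held no match with this spacing but 1 with the units spaced by 1 base (GAAANGAAA), 5 bases before a start; that spacing was searched after the windows had been seen, was found in IFI44, MX1, RSAD2 and XAF1, and lies in 3.53% of the listed genes. A match is a run of letters, not a measured binding site.

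The stretches below show the match, in capitals, with up to 20 bases on each side. They are given for members with a match, 2 bases between the units, before a start, because these genes share the element and yet differ in their course. MX1 also has such a match, at -196 from a later start, and its stretch is not shown. IFI27 and IFI6 hold several copies, IFI44 and its neighbour IFI44L hold different letters, and ISG20, which was not called in any comparison, holds an intact copy. Each is given 5′ to 3′ on the strand of its gene: IFI27 chr14:94110608-94110670 (plus), IFI6 chr1:27672256-27672368 (minus), IFI44 chr1:78649751-78649788 (plus), IFI44L chr1:78620264-78620404 (plus), BST2 chr19:17405725-17405780 (minus), RSAD2 chr2:6877612-6877661 (plus) and ISG20 chr15:88638927-88638976 (plus).
IFI27: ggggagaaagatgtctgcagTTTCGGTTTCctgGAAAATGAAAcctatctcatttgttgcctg
IFI6: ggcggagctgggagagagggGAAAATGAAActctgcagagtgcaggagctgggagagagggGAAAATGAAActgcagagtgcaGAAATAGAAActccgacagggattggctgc
IFI44: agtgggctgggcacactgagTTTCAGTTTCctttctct
IFI44L: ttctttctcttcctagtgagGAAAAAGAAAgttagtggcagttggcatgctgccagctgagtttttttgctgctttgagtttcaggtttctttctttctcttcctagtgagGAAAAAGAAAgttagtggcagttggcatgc
BST2: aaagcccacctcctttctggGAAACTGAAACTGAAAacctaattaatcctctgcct
RSAD2: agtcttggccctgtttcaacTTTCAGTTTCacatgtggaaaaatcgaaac
ISG20: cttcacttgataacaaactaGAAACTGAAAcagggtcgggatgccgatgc

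**Figure D1:**
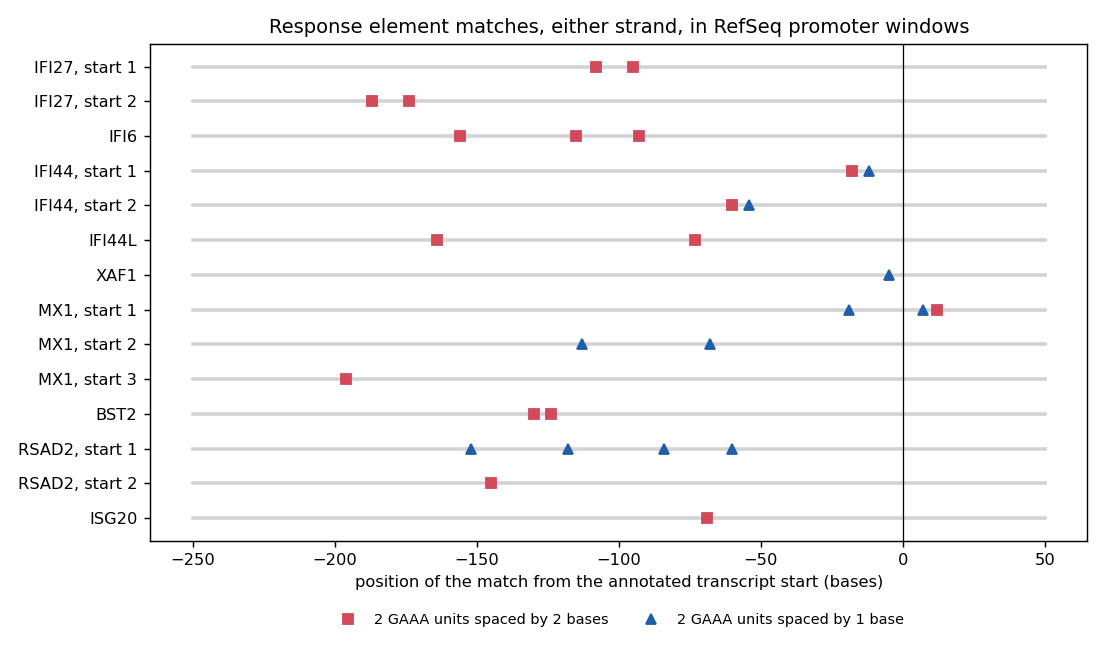
Positions of matches to 2 GAAA units spaced by 2 bases (squares) or by 1 base (triangles), on either strand, against the distance in bases from each annotated transcript start with a match. IFI6 has 3 squares between -156 and -93, IFI44 a square at -18 before its first start, XAF1 a single triangle at -5, and MX1 a square at 12, just after its first start.

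The capitals in the BST2 stretch are 2 overlapping matches, at -130 and -124 from the start. The IFN-gamma activated site, TTCNNNGAA (a palindrome), lies in windows of BST2, IFI27 and MX1, and of 8.68% of the listed genes. In IFI27 it overlaps both response element cores, at -101 from the first start.

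In T47D, 9 of the 10 members rose at day 3 and none fell, and 171 of 14768 genes (1.16%) were called higher. The same 9 members had day 3 libraries all above the control libraries, as did 10% of all genes. At day 15, 8 rose, with 5.0% of genes called higher, and 8 members had libraries all above control, as did 12.9% of genes. From day 3 to day 15, 7 fell (3.35% of genes were called lower), and 9 had day 15 libraries all below day 3 (11.9% of genes). Since these contrasts chose the members, nothing is read from the counts. The member medians of the log2 fold were 4.24 at day 3, 2.41 at day 15 and -1.63 from day 3 to day 15, while the medians over all genes were -0.00264, 0.00285 and 0.00206. These are RNA levels of whole cultures, so more RNA per cell and more cells with the RNA cannot be told apart.

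IFI27 (ENSG00000165949.12, chr14:94104836-94116698, plus strand of GRCh38, GENCODE 29) and IFI6 (ENSG00000126709.14, chr1:27666061-27672218, minus strand) encode small related hydrophobic proteins found in mitochondrial and other inner membranes. IFI27 had 0.360, 0.237 and 0.551 CPM (16, 12 and 22 reads) in the T47D control libraries, 21.1, 20.2 and 20.2 CPM at day 3, and 7.54, 7.60 and 6.41 CPM at day 15. All day 15 libraries lay between the other groups, without overlap. The log2 fold was 5.58 (SE 0.198) at day 3 and 4.07 (SE 0.198) at day 15. At day 3 IFI27 ranked 1 of 14767 genes other than G0S2 by size of rise on the deposited scale. That rank depends on the pseudocount: the ratio of mean CPM was 53.5 for IFI27 and 79.6 for IFI44L. From day 3 to day 15 IFI27 fell by 1.51 (SE 0.198) on the log2 scale.

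IFI6 started from a clear basal level in T47D: 8.21, 8.15 and 8.12 CPM in control. It reached 158.7, 155.1 and 156.5 CPM at day 3 and had 46.4, 51.9 and 42.3 CPM at day 15. The control and day 3 libraries each lay within a few percent of each other, and day 15 spread more widely. The log2 fold of IFI6 was 4.25 (SE 0.0601) at day 3 and 2.51 (SE 0.0601) at day 15, and it fell by 1.75 (SE 0.0601) between them.

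IFI44 (ENSG00000137965.10, chr1:78649796-78664078, plus strand) and IFI44L (ENSG00000137959.15, chr1:78619922-78646145, plus strand) are paralogs that lie 3650 bases apart. IFI44 had 0.270, 0.138 and 0.0751 CPM (12, 7 and 3 reads) in T47D control, 7.24, 7.16 and 7.16 CPM (325, 324 and 317 reads) at day 3, and 5.99, 5.51 and 6.46 CPM (274, 251 and 309 reads) at day 15. Its day 15 libraries were all below its day 3 libraries and far above control. The log2 fold of IFI44 was 5.09 (SE 0.237) at day 3 and 4.82 (SE 0.237) at day 15, where it ranked 1 of 14767 genes other than G0S2 on the deposited scale. From day 3 to day 15 the difference was -0.27 (SE 0.237) and was not called.

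IFI44L, the neighbour on the same strand, had 0, 2 and 1 reads in T47D control, 73, 66 and 91 reads (1.63, 1.46 and 2.06 CPM) at day 3, and 20, 18 and 18 reads (0.437, 0.395 and 0.376 CPM) at day 15. Set against 3 control reads in all, the level was 77.0 times higher at day 3 (exact 95% counting interval 26.0 to 376.1) and 18.1 times at day 15 (5.88 to 90.4); the intervals cover counting error only. The fitted log2 folds of 4.36 (SE 0.27) and 2.44 (SE 0.27) depend on the pseudocount and became 5.97 and 3.93 with 0.5 reads. IFI44L fell by 1.91 (SE 0.27) from day 3 to day 15, whereas IFI44 was not called there; the difference between the genes was not tested.

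XAF1 (ENSG00000132530.16, chr17:6755447-6775647, plus strand) encodes a binding partner of XIAP that promotes cell death. It had 6, 2 and 7 reads (0.135, 0.0396 and 0.175 CPM) in T47D control, 4.88, 4.78 and 4.66 CPM at day 3 and 1.09, 1.38 and 1.09 CPM at day 15. The log2 fold was 4.81 (SE 0.256) at day 3 and 2.85 (SE 0.256) at day 15, and it fell by 1.96 (SE 0.256) between them. With few control reads, the day 3 and day 15 folds of XAF1 were 5.43 and 3.42 with a pseudocount of 0.5 reads.

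MX1 (ENSG00000157601.13, chr21:41420304-41459214, plus strand) and MX2 (ENSG00000183486.12, chr21:41361943-41409390, plus strand) encode dynamin-like GTPases that interfere with early steps of viral growth, and lie 10913 bases apart. MX1 had 21.2, 21.8 and 20.4 CPM in T47D control, 388, 378 and 401 CPM at day 3, and 110.5, 105.0 and 114.9 CPM at day 15. It had the highest day 3 CPM of the members, and its groups were well apart. The log2 fold of MX1 was 4.20 (SE 0.0419) at day 3 and 2.38 (SE 0.0419) at day 15, and it fell by 1.82 (SE 0.0419) from day 3.

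MX2 moved far less than its neighbour. It had 2.07, 2.0 and 2.53 CPM in T47D control, 3.79, 3.12 and 3.71 CPM at day 3 and 2.21, 2.72 and 2.86 CPM at day 15. The day 3 libraries were above all others, and the day 15 libraries overlapped the controls. The log2 fold of MX2 was 0.67 (SE 0.138) at day 3; it was 0.23 (SE 0.138) at day 15 and -0.44 (SE 0.138) from day 3, neither of which was called. The day 3 call was lost without control replicates 1 or 2 (log2 folds 0.63 and 0.61) or day 3 replicates 1 or 3 (0.62 and 0.64), and in limma without trend or robust moderation. The fall from day 3 was called without day 15 replicate 2 (-0.48).

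BST2 (ENSG00000130303.12, chr19:17402939-17405648, minus strand) encodes tetherin, which holds budding virus particles on the cell surface. In T47D it had 74.2, 73.5 and 75.8 CPM in control, 186.8, 182.7 and 195.2 CPM at day 3 and 114.2, 108.6 and 110.0 CPM at day 15. The groups did not overlap. The log2 fold was 1.34 (SE 0.036) at day 3 and 0.57 (SE 0.036) at day 15, and BST2 fell by 0.76 (SE 0.036) between them.

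RSAD2 (ENSG00000134321.11, chr2:6865806-6898239, plus strand) encodes viperin, a radical SAM enzyme that makes a chain-terminating nucleotide. It had 3, 5 and 7 reads (0.0675, 0.0989 and 0.175 CPM) in T47D control, 2.99, 3.25 and 3.37 CPM at day 3 and 0.852, 0.90 and 0.71 CPM at day 15. The log2 fold was 4.22 (SE 0.227) at day 3 and 2.34 (SE 0.227) at day 15, or 4.78 and 2.82 with a pseudocount of 0.5 reads, and RSAD2 fell by 1.89 (SE 0.227) from day 3.

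ISG20 (ENSG00000172183.14, chr15:88636153-88656483, plus strand) encodes an exonuclease that degrades single-stranded RNA. It had 1.21, 1.44 and 1.15 CPM (54, 73 and 46 reads) in T47D control, 1.09, 1.48 and 0.859 CPM at day 3 and 1.27, 0.966 and 1.27 CPM at day 15. All 3 groups overlapped, and the lowest and the highest of the 9 libraries were both at day 3. The log2 fold of ISG20 was -0.17 (SE 0.202) at day 3 and -0.12 (SE 0.202) at day 15. Its stretch above holds the same 10 letters as both BST2 matches. The matches of IFI44 and RSAD2 shown above are the same letters read on the other strand.

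**Figure D2:**
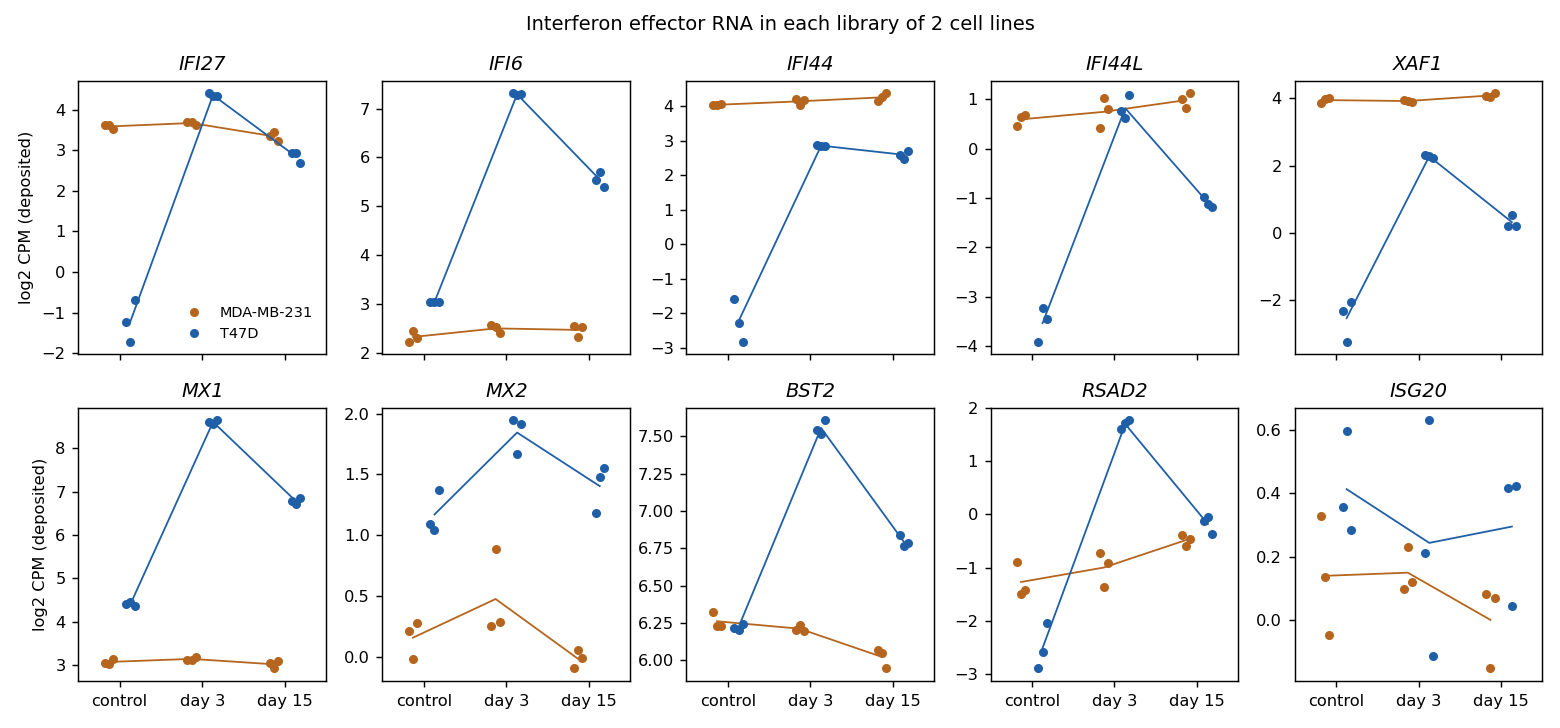
Deposited log2 CPM (vertical axis, own range in each panel) of the 10 members in control, day 3 and day 15 libraries; each point is a library, lines join group means, and color marks the line. In T47D 9 genes peak at day 3 and IFI44 stays near its peak at day 15, while in MDA-MB-231 the points move little.

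IFI44, chosen for its lasting level, kept the largest share of its day 3 rise among the induced members. Measured as CPM above the control mean, its day 15 libraries kept 82.8% of the day 3 rise on average, with single libraries at 76.1% to 89.6%. The other 8 induced members kept means of 22.5% (IFI44L) to 33.8% (IFI27), and no library of theirs was above 49.6%. Among these, RSAD2 (22.9%), XAF1 (23.0%), MX1 (24.2%) and IFI6 (26.1%) follow IFI44L, and their library ranges overlap from one neighbour to the next. BST2 kept 32.0% (30.0% to 34.9%). MX2 kept 29.7%, with libraries at 0.553% to 49.6%, a wide spread over a small rise. As a share of the whole day 3 level, basal level included, the day 15 mean was 83.2% in IFI44 (libraries 76.6% to 89.8%), 73.4% in MX2 (62.4% to 80.9%) and 58.9% in BST2, against 23.5% to 35.1% in the other induced members. On this measure the libraries of IFI44 and MX2 overlapped.

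**Figure D3:**
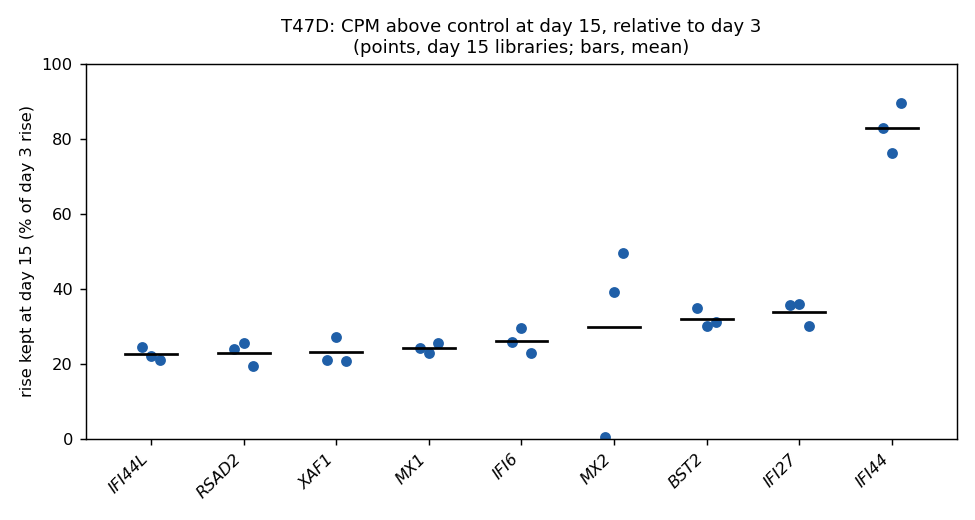
CPM above the control mean in each T47D day 15 library (points) and their mean (bars), as a percentage of the mean day 3 rise, for the 9 members that rose at day 3. IFI44 lies between 76.1% and 89.6%, while 7 members lie between 19.3% and 35.9% and MX2 spreads from 0.553% to 49.6%.

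Over the 9 T47D libraries, IFI27, IFI6, IFI44L, XAF1, MX1, BST2 and RSAD2 had pairwise Pearson correlations of log2 CPM of 0.938 to 0.998. IFI44 correlated with these 7 genes at 0.839 to 0.957, MX2 at 0.824 to 0.887 and ISG20 at -0.371 to -0.305. The values describe 3 groups that share libraries, and mostly reflect the group means.

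Of the non-member genes, 12046 passed a mean of 1 log2 CPM in T47D and were searched. Those most like IFI44 were G0S2 itself (r = 0.995), IFITM2 (r = 0.993) and ADAM9 (r = 0.993), a membrane metalloprotease gene. IFITM2, which encodes a protein that hinders virus entry, had means of 5.75, 9.04 and 8.77 CPM in control, at day 3 and at day 15, and ADAM9 had 414.7, 855.1 and 836.7 CPM. For both, the day 3 and day 15 libraries overlapped. The genes most like IFI44L were IFITM1 (r = 0.997), TRIM21 (r = 0.995) and DDX60 (r = 0.994), all of them interferon-induced. IFITM1 had means of 4.17, 34.5 and 13.5 CPM, and so had 39.3% of its day 3 level at day 15, against 97.0% for IFITM2.

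The genes most like MX2 were APOL2 (r = 0.948; means of 17.5, 24.3 and 18.9 CPM), CHMP7 (r = 0.932) and GTPBP2 (r = 0.923). For ISG20 they were ST3GAL5 (r = 0.919), SMURF1 (r = 0.901) and ZNF284 (r = 0.886). Each correlation is over 9 libraries and the genes were picked as the highest of those searched.

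Several members that were near 0 in T47D control cells had a steady level in MDA-MB-231 control libraries: IFI44 had 16.3, 16.2 and 16.7 CPM, XAF1 14.6, 15.6 and 16.0 CPM, and IFI27 12.3, 12.2 and 11.4 CPM. MX1 was lower there (8.29, 8.07 and 8.74 CPM) and BST2 similar (80.0, 75.0 and 74.9 CPM). The tables of the lines were scaled separately, so these levels are set side by side with no test. At day 3, IFI27 and MX1 in T47D stood above the MDA-MB-231 level, and IFI44 and XAF1 remained below it.

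At day 3 in MDA-MB-231 none of the members was called by limma in either direction, and none at an unadjusted p under 0.05; 0.895% of genes were called higher and 0.874% lower. The member median of the log2 fold was 0.09. At day 15, 1 member rose (3.42% of genes called higher) and 2 fell (4.77% called lower). From day 3 to day 15, 2 fell (2.86%) and none rose (2.47%). At an unadjusted limma p under 0.05, 1 was higher and 3 were lower. The share of all genes at that threshold is not given here, so nothing is read from these counts. Without day 15 replicate 2, XAF1 was called higher from day 3 (0.19).

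The member that rose at day 15 in MDA-MB-231 was IFI44, with 18.3, 16.5 and 18.1 CPM at day 3 and 17.7, 19.01 and 20.6 CPM at day 15. All day 15 libraries were above the controls. Its log2 fold was 0.10 (SE 0.06) at day 3 and 0.22 (SE 0.06) at day 15, and the day 15 call was lost without control replicates 1 or 2 (0.21 in each case) or day 15 replicate 3 (0.16).

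IFI27 and BST2 fell at day 15 in MDA-MB-231, the opposite of their direction in T47D. IFI27 had 12.95, 12.9 and 12.2 CPM at day 3 and 10.1, 10.9 and 9.24 CPM at day 15, with day 15 below both other groups. Its log2 fold was -0.25 (SE 0.0691) at day 15 and -0.33 (SE 0.0691) from day 3. The day 15 call of IFI27 was lost on omission of control replicate 1 or control replicate 2 (-0.23 in each case), or of day 15 replicate 1 (-0.25) or 3 (-0.18), and that from day 3 without day 3 replicates 1 or 2 (-0.32 in each case).

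BST2 had 73.5, 75.1 and 73.3 CPM at day 3 and 67.1, 66.1 and 61.5 CPM at day 15 in MDA-MB-231. Its log2 fold was -0.24 (SE 0.0362) at day 15 and -0.19 (SE 0.0362) from day 3, and the calls held with each library left out in turn.

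RSAD2 had the largest fold of the members at day 15 in MDA-MB-231 but few reads: 20, 13 and 16 in control, 22, 15 and 20 at day 3 and 29, 25 and 24 at day 15. The day 15 libraries (0.701, 0.593 and 0.654 CPM) were above all others. The log2 fold was 0.79 (SE 0.274) and was not called, although it was with the replicate number as a block. IFI44L (0.39, SE 0.165) and XAF1 (0.14, SE 0.0577) also had day 15 libraries above all controls and were not called. The groups of 4 members did not overlap in the higher direction at day 15, as in 11.7% of all genes, and those of 2 in the lower direction, as in 12.6%.

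The remaining members gave values near control in MDA-MB-231. MX1 had 8.68, 8.61 and 9.07 CPM at day 3 and 8.19, 7.52 and 8.45 CPM at day 15. IFI6 ranged from 4.61 to 5.37 CPM in control, 5.23 to 5.87 at day 3 and 4.91 to 5.82 at day 15. ISG20 ranged from 0.899 to 1.19 CPM in control and 0.831 to 0.991 at day 15. MX2 had 1.12, 1.78 and 1.16 CPM at day 3, where 1 library stood apart, and 0.87, 0.973 and 0.927 CPM at day 15; its log2 fold was 0.32 (SE 0.196) at day 3 and -0.17 (SE 0.196) at day 15.

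**Figure D4:**
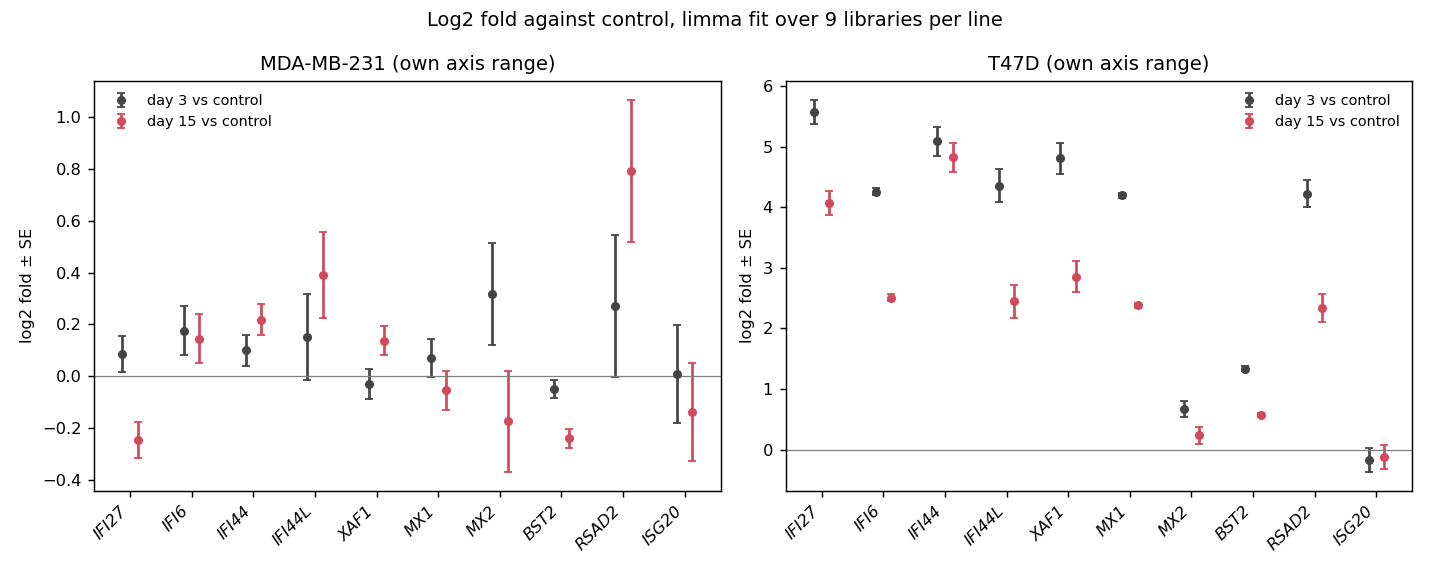
Log2 fold against control with its SE (bars) for each member at day 3 (dark) and day 15 (red), in MDA-MB-231 (left) and T47D (right), each panel on its own axis. In T47D the day 15 points lie below the day 3 points except that IFI44 is nearly level and ISG20 is near 0; in MDA-MB-231 all folds but that of RSAD2 at day 15 are within 0.4 of 0.

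Levels can be set between genes per length of exon (GENCODE 29 basic transcripts, which may differ from the authors' annotation). In T47D control cells BST2 had 73.1 CPM per kilobase, followed by IFI6 (9.43) and MX1 (5.23), and the other members were below 1. At day 3 BST2 (184.7) and IFI6 (181.2) were level, followed by MX1 (96.3), IFI27 (24.8) and IFI44 (4.26). IFI44L had 0.292 CPM per kilobase at day 3 and 0.0686 at day 15, when IFI44 had 3.55. In MDA-MB-231 control cells the order was BST2 (75.2), IFI27 (14.5), IFI44 (9.72), IFI6 (5.73) and XAF1 (4.24), with MX1 at 2.07.

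Other effector genes of the interferon response also rose in T47D. Of 57 measured genes of a list of 60 that leaves the members out, 53 rose at day 3, none fell and 4 were not called, where 1.16% of all genes were called higher. The median log2 fold of the list was 1.40. This list and the signaling list below were chosen with earlier results of these data known. Their counts and adjusted p-values are therefore a description, as for the members. OAS1, which makes short oligoadenylates when it meets double-stranded RNA, rose by 5.50 (SE 0.167, limma adjusted p = 1.01e-10), OAS2 by 4.70 (SE 0.082, adjusted p = 1.98e-14), IFIT1, which binds foreign RNA ends, by 4.66 (SE 0.0611, adjusted p = 9.36e-16) and OASL by 4.56 (SE 0.164, adjusted p = 5.35e-10). In CPM, IFIT1 went from 6.52 ± 0.388 (SD) to 166.7 ± 3.78. Among the 4 that were not called, and named after their values were seen, were GBP2, LY6E and MOV10, with log2 folds of 0.15, -0.09 and 0.13.

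At day 15 in T47D, 49 of the 57 rose and none fell (median log2 fold 0.72), where 5.0% of all genes were called higher. From day 3 to day 15, 50 fell and none rose (median -0.78), where 3.35% were called lower. OAS1 was still up by 3.82 (SE 0.167, adjusted p = 1.03e-08), OAS2 by 2.82 (SE 0.082, adjusted p = 1.44e-11) and OASL by 2.80 (SE 0.164, adjusted p = 1.35e-07).

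Of 17 measured genes for receptors, kinases, transcription factors and feedback inhibitors in T47D (list of 18), 6 rose and 1 fell at day 3. Of all genes, 1.16% were called higher and 0.718% lower. The list median of the log2 fold was 0.08. The rises were in transcription factors, among them IRF9 by 2.61 (SE 0.0746, adjusted p = 5.77e-12), IRF7 by 2.09 (SE 0.168, adjusted p = 5.81e-06), IRF1 by 0.91 (SE 0.141, adjusted p = 0.00173), and, named after their values were seen, STAT2 by 0.71 and IRF2 by 0.28. The fall, JAK1 (-0.13, SE 0.0281, adjusted p = 0.0311), was not called with median-centred libraries or without any single control or day 3 library or day 15 replicate 1. At day 15, 5 of 17 rose (5.0% of all genes), among them IRF9 by 1.62 (SE 0.0746, adjusted p = 3.32e-09), IRF7 by 1.13 (SE 0.168, adjusted p = 0.000834), STAT2 and IFNGR2. From day 3 to day 15, 5 of 17 fell, where 3.35% of all genes were called lower, and 1 rose (IFNGR2, 0.18). The share of all genes called higher in this comparison is not given here, so nothing is read from the single rise. Among the falls were IRF9 (-0.98), IRF7 (-0.96), IRF1 (-0.73) and STAT2 (-0.49).

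None of 9 interferon genes looked for (IFNA1, IFNA2, IFNB1, IFNE, IFNK, IFNG, IFNL1, IFNL2 and IFNL3) is listed in either table. Leukocytes are another source of these RNAs in tissue. In T47D the leukocyte markers PTPRC, CD3E, LYZ, ITGAM and NCAM1 are not listed. CD14 had 0.426 to 0.746 CPM and CD68 had 0.310 to 1.05 CPM over the 9 libraries. The plasmacytoid dendritic cell markers CLEC4C, IL3RA and LILRA4 are not listed, and TCF4 had 4.17 to 5.06 CPM at day 3 against 4.32 to 4.77 in control and 2.88 to 3.57 at day 15, below both other groups without overlap; its part in the members' falls was not tested. Of the fibroblast markers 1 of 5 is listed (COL1A1, 16.5 to 20.4 CPM over all libraries) and of 4 endothelial markers none.

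In MDA-MB-231, 59 genes of the same effector list were measured. At day 3, 5 were higher and 2 lower at an unadjusted limma p under 0.05. The share of all genes at that threshold is not given here, so nothing is read from these counts. After adjustment there was 1 rise and no fall (0.895% and 0.874% of genes). The rise, in SAMD9L (0.22, SE 0.0434, adjusted p = 0.00347), was lost without control replicate 2. At day 15, 3 rose and 3 fell of 59, close to the shares over all genes (3.42% called higher and 4.77% lower), so the counts against control do not set the list apart. Among them were SAMD9L (0.25, SE 0.0434, adjusted p = 0.000542), TRIM22 (-0.65, SE 0.128, adjusted p = 0.00194) and LY6E (-0.25, SE 0.0529, adjusted p = 0.00503); 5 and 7 rose without control replicate 3 and day 15 replicate 2, and 6, 5 and 5 fell without control replicate 3 and day 15 replicates 2 and 3. Of 18 signaling genes 2 fell at day 15, where 4.77% of all genes were called lower: IFNLR1, the specific receptor subunit for type III interferon (-0.40, SE 0.0957, adjusted p = 0.00926), and IRF1 (-0.16, SE 0.0434, adjusted p = 0.0233). The IRF1 call was lost when control replicate 1, control replicate 2, day 15 replicate 1 or day 15 replicate 3 was omitted, which leaves 1 fall. From day 3 to day 15, 1 gene of the effector list rose and 6 fell of 59. Of all genes, 2.47% were called higher and 2.86% lower in this comparison. Without day 3 replicate 1, or without day 3 replicate 2, 0 genes of the effector list were called. Of the 18 signaling genes 1 fell from day 3 (IFNLR1, -0.38) and none rose.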

How the data were processed

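RNA of 18 libraries was analysed, 3 in each of 6 groups. The authors aligned reads with STAR, counted with featureCounts and used limma on GRCh38.p13, per the submitters' processing notes; the sources used here give no scaling method, low-count filter or strand setting. The deposited values are log2 CPM, one table per line. Removing a pseudocount averaging 3 reads (2.52 to 3.60, in proportion to depth) turned every value into whole reads (tolerance 0.1), which gave the depth and CPM of each library (37012519 to 52380759 reads in MDA-MB-231 and 40123505 to 50973067 in T47D); depth limits precision mostly for genes with few reads.

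For each line limma 3.58.1 (R 4.3.3, statmod 1.5.0; trend and robust moderation, group means only) was fitted to the 9 deposited log2 columns over all listed genes. Calls required an adjusted p (Benjamini-Hochberg) under 0.05. The procedure was tried on simulated counts with the same spread in all libraries and with changes at day 3 only. That simulation does not cover a library that stands apart, such as T47D day 15 replicate 2, or the day 15 calls. The members and gene lists were chosen with earlier results of these data known. Named genes are all members, G0S2, for 4 members (IFI44, IFI44L, MX2 and ISG20) the 3 genes with the highest correlation in T47D, and the called list genes with the largest folds (up to 4 at day 3 in T47D and 3 at day 15 in either line) at mean log2 CPM of 1 or more. Libraries of a group differed by more than sampling noise in every pair, most of all T47D day 15 replicate 2. Same-numbered libraries had deviations correlated at -0.41 to 0.28, so the numbers were not taken as pairs. Reads of MX1 and MX2, or IFI44 and IFI44L, may be split between these paralogs by the authors' counting. A few genes of the lists and markers are counted in the list totals but not reported here by name.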

Additional observations from a re-analysis of the deposited data

Results flagged for a closer look

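Several genes had groups that did not overlap and log2 folds of opposite sign in the 2 lines. In MDA-MB-231, XAF1, RSAD2 and IRF1 were not called in the comparisons given here. The difference between lines was not tested. At day 15 against control, IFI27 had a log2 fold of -0.25 (SE 0.0691) in MDA-MB-231 and 4.07 (SE 0.198) in T47D, a difference of 4.31. For BST2 these were -0.24 (SE 0.0362) and 0.57 (SE 0.036), a difference of 0.81. TRIM22, an effector outside the members, had -0.65 (SE 0.128) and 1.64 (SE 0.336), a difference of 2.29. At day 15 against day 3, XAF1 had 0.17 (SE 0.0577) in MDA-MB-231 and -1.96 (SE 0.256) in T47D, a difference of -2.12, and RSAD2 had 0.52 (SE 0.274) and -1.89 (SE 0.227), a difference of -2.41. At day 3 against control, IRF1 had -0.09 (SE 0.0434) and 0.91 (SE 0.141), a difference of 0.995. Groups without overlap are common in MDA-MB-231: at day 15 against control, 11.7% of all genes were higher in this sense and 12.6% lower. The shares in MDA-MB-231 for the comparisons of XAF1, RSAD2 and IRF1 are not given here.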

How the results depend on the processing

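Of 876 member log2 folds recomputed under other settings, 856 stayed within 1 SD of the reported value and none that was called changed sign. The 20 others were in T47D, for example IFI44 at day 3 (5.09 as reported, 5.55 with a pseudocount of 0.5 reads and 4.79 without control replicate 3). Counts of calls that moved by over 1.5 times follow. Restricting the fit to genes at a mean of at least 1 log2 CPM removes members, and left 5 rises at day 15 and 4 falls from day 3 in T47D. Without trend or robust moderation, MDA-MB-231 had 0 member rises and 1 fall at day 15 and 0 falls from day 3; other effectors had 0 rises at day 3, 0 rises and 1 fall at day 15, and 0 rises and 0 falls from day 3; signaling genes had 0 falls at day 15 and from day 3; in T47D signaling genes had 0 falls at day 3 and 0 rises from day 3. With the compared groups alone, 1 member fell at day 15 in MDA-MB-231 and 0 signaling genes rose from day 3 in T47D. With median-centred libraries, 0 signaling genes fell at day 3 in T47D. With a replicate block, although same-numbered libraries did not deviate together, MDA-MB-231 had 2 member rises at day 15 (RSAD2 added) and 1 from day 3 (XAF1); other effectors had 2 rises and 1 fall at day 3, 5 and 9 at day 15, and 3 and 10 from day 3; T47D signaling genes had 0 falls at day 3 and 0 rises from day 3. The cause of these differences was not tested. Leaving out each library in turn, members in MDA-MB-231 gave 0 to 1 rises and 1 to 2 falls at day 15, and 0 to 1 rises and 1 to 2 falls from day 3; other effectors gave 0 to 1 rises at day 3, 2 to 7 rises and 2 to 6 falls at day 15, and 0 to 5 rises and 0 to 7 falls from day 3; signaling genes gave 1 to 2 falls at day 15 and 0 to 1 from day 3. In T47D signaling genes gave 0 to 1 falls at day 3 and 0 to 2 rises from day 3. Few reads limit the T47D control values of IFI44, IFI44L, XAF1, RSAD2 and IFI27.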
